A study of Mus musculus with 20 samples.

Results

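The mitosis genes described here are 40 mouse genes that act from the entry into mitosis to the separation of the daughter cells, chosen by gene symbol and function, with earlier results of these data known. Of these, 39 were measured, among 19607 genes on the arrays, by 633 probe sets, with 5 to 44 probe sets a gene. No probe set used here named Ccnb1, the gene of cyclin B1, and it has no value below. All 39 passed the filter on dim genes in every comparison. Values are log2 signals, so a difference of 1 is a doubling if the base of the logarithm is 2, which the sources used here do not state. A gene was called higher or lower where limma's adjusted p (Benjamini-Hochberg over all genes tested) was below 0.05. Differences are given on the log2 scale with their standard error after the ± sign. Counts at an unadjusted p or under alternative fits come without the share of all genes and are not results about the members.

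The study asked how loss of Gfi1, a zinc-finger repressor of transcription in blood cells, changes expression in irradiated thymocytes and in thymic tumours of C57BL/6 mice. Thymocytes labelled wt (WT) or Gfi1 KO (KO) were untreated (2 arrays of each genotype) or irradiated (3 of each), with dose, time after irradiation and the make-up of the KO allele not given in the sources used here. Tumours came from mice injected with the mutagen ENU (3 arrays of each genotype) or from ENU-injected mice that also carried a Notch transgene, labelled Notch1-CT (2 of each). Both tumour genotypes carried floxed Gfi1 alleles (Gfi1f/f), and the KO mice also had Mx1Cre, a recombinase driven by an interferon-responsive promoter that is active in many cell types. Per the labels, mice were given pIpC, which switches Mx1Cre on, once a mediastinal tumour was growing, and tumour cells were taken weeks later. The control tumours thus share ENU, pIpC and the floxed alleles with the KO tumours. The promoter of the Notch transgene is not given, and whether the samples of a group are different mice is not said, so p-values may reflect technical spread only. The array numbers in the labels run in blocks by treatment, so the order of processing and the treatment cannot be told apart, whereas WT and KO arrays of one treatment have neighbouring numbers.

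At mitosis a cell condenses its copied chromosomes, attaches them through kinetochores to a bipolar spindle of microtubules, pulls them apart and divides by cytokinesis. Most genes for this machinery are transcribed late in the cell cycle, under a MuvB complex that works with B-Myb and FOXM1 in dividing cells and with p130 or p107 and E2F as the repressive DREAM complex in resting cells. A MuvB subunit binds a short promoter element called CHR, often with CCAAT boxes bound by NF-Y upstream of it, whereas genes of DNA replication depend more on E2F sites. In the thymus most cells are small CD4+ CD8+ cells that rest, and dividing cells are largely their immediate precursors. The arrays measured bulk RNA, in which fewer cells in mitosis and less RNA per cell cannot be told apart.

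Promoter windows from RefSeq (GRCm38.p6, 250 bases before to 50 after a gene start) were given for 32 of the 40 genes, as 34 windows. The CHR letters TTTGAA or TTCGAA, on either strand, were in 26 of the 34 windows (76.5%), against 19.2% of all 32851 windows and 20.8% of 53 windows of genes of the G1/S transition and DNA replication. The letters CCAAT, on either strand, were also in 26 member windows (76.5%), against 37.4% of all windows and 54.7% of the replication windows. Within 50 bases of the start on either side, a span chosen after the positions were seen, 70.6% of member windows and 5.31% of all windows held a CHR. A match of letters is a description and not a measured site of binding. The stretches below are from 5 genes whose signal fell after irradiation and 2 whose signal rose in WT. Each has 30 bases, 5′ to 3′ on the gene's strand, with the CHR in capitals.
Plk1, chr7:122159453-122159482, plus strand: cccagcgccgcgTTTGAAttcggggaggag
Aurka, chr2:172370521-172370550, minus strand: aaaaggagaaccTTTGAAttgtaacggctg
Cenpf, chr1:189688067-189688096, minus strand: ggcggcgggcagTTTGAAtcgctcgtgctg
Hmmr, chr11:40733412-40733441, minus strand: agttgaggtaaaTTTGAAttcaggcgagct
Cdc20, chr4:118437344-118437373, minus strand: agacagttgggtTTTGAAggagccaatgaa
Kif4, chrX:100626072-100626101, plus strand: ctctgggatcaaTTTGAAacttggcggtta
Mki67, chr7:135716460-135716489, minus strand: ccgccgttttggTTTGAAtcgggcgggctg
The CHR began 31 bases into the Plk1 transcript, 33 into Aurka, 3 into Cenpf, 9 into Hmmr and 20 into Kif4. It began at position -18 from the start of Cdc20, and Mki67 had a pair, at -116 and -98. The 100 bases before the start are shown for Plk1 and Aurka, which fell most among the kinases, and for Cdc20, with CCAAT and CHR in capitals.
Plk1, chr7:122159335-122159434, plus strand: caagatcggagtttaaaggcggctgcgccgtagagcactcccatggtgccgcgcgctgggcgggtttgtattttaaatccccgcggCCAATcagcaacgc
Aurka, chr2:172370571-172370670, minus strand: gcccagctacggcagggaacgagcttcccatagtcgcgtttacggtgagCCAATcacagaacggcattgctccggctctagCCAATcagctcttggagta
Cdc20, chr4:118437344-118437443, minus strand: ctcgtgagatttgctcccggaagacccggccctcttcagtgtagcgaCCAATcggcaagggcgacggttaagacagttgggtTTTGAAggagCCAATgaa

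Before the results, 1 array and 1 label need a remark. The array KO Notch tumour 2 correlated with the other array of its group at 0.87 over all probe sets, whereas pairs in the other groups reached 0.936 to 0.988. Its median over 9 thymocyte markers, each centred on its mean over the 20 arrays, was -3.10 against -0.42 to 0.72 elsewhere, and its B cell markers had a median of 3.96. Cd3e, a T cell receptor subunit, read 12.38 there and at least 13.50 on every other array, and Cd79a, a B cell receptor subunit, read 13.76 there and at most 10.93 elsewhere. Tumour results are therefore given with and without it. The targeted gene was low in KO thymocytes by part of its 8 probe sets: in untreated KO cells the second fell from 12.07 and 11.83 to 5.62 and 5.67, the third from 11.36 and 11.41 to 8.60 and 8.50 and the fourth from 11.28 and 11.11 to 9.05 and 8.85, while 4 others were higher than in WT. In irradiated KO cells the second read 12.72 to 12.74 and the fourth to the eighth were lower than in WT. The gene-level difference was thus 0.26 ± 0.15 in untreated cells (limma adjusted p = 0.333) and -1.31 ± 0.12 in irradiated cells (adjusted p = 6.59e-07). KO ENU tumours had no probe set of Gfi1 that differed from WT by more than -0.65, and the gene-level difference was -0.24 ± 0.27 (limma adjusted p = 0.633). In KO Notch tumours 5 of the 8 probe sets were lower on average than in WT, with -4.51 as the lowest difference, that of the second. The second read 6.31 and 7.10 in KO against 11.43 and 11.01 in WT Notch tumours. The third, also low in untreated KO cells, read 8.78 and 9.01 against 10.80 and 10.33. KO is used below as the labels give it. Untreated and irradiated KO cells thus differed in which Gfi1 probe sets were low. The part of this in comparisons between them was not tested.

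**Figure D1:**
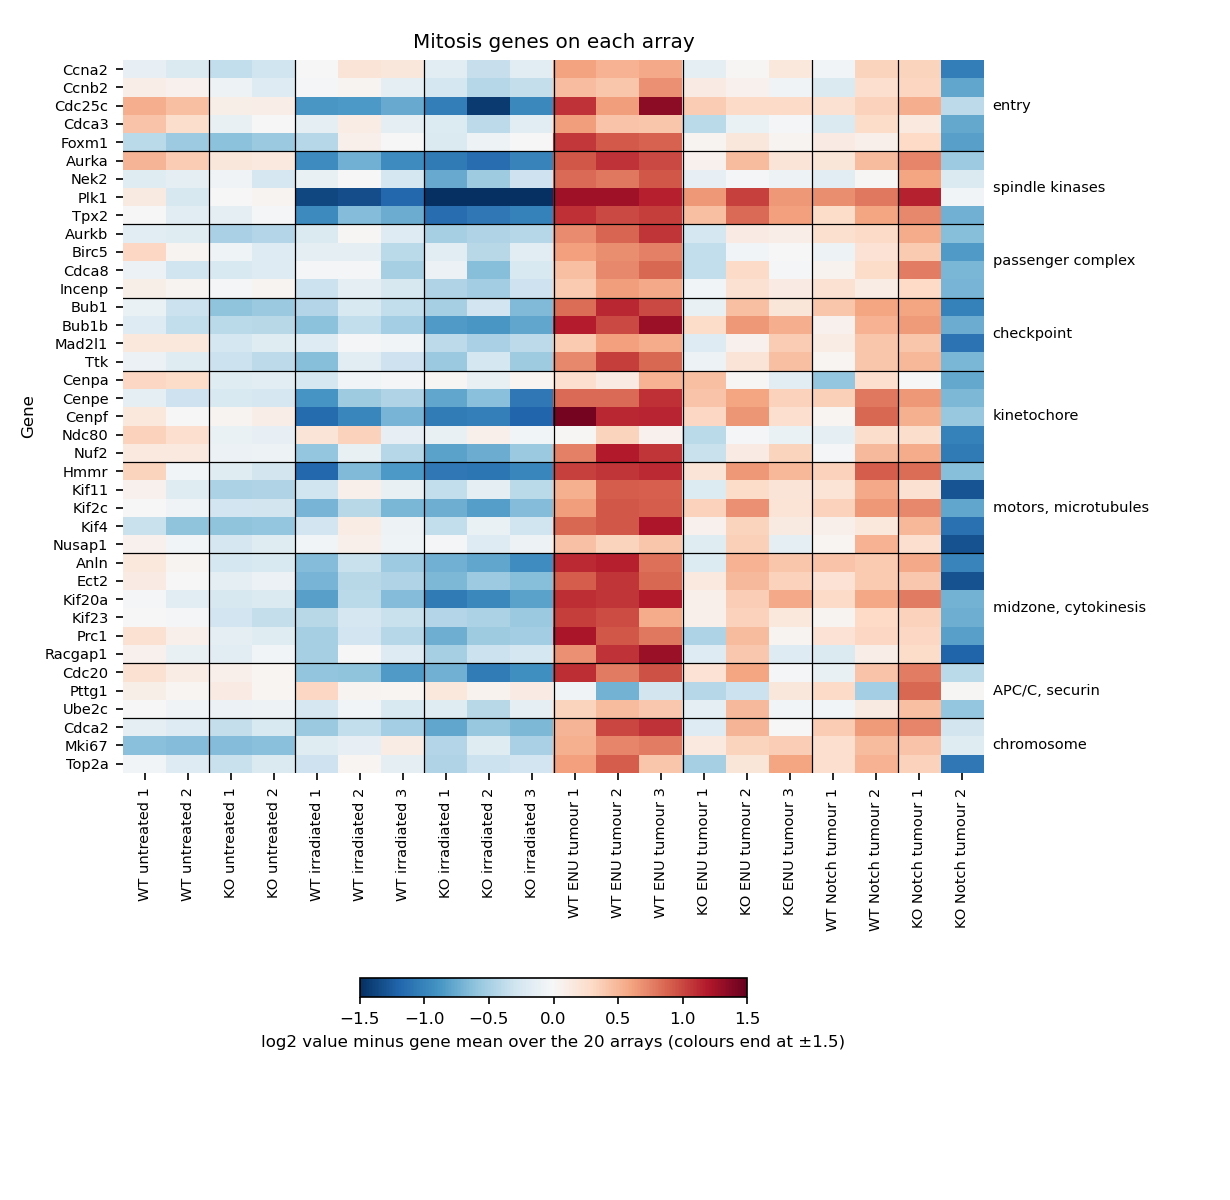
Each row is 1 of the 39 mitosis genes, grouped by role, and each column 1 of the 20 arrays; colour is the log2 value minus the gene's mean over the arrays, with colours ending at ±1.5. WT ENU tumours are high for most genes, irradiated thymocytes are low for Aurka, Plk1 and Tpx2, and KO Notch tumour 2 is low almost throughout.

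Across the 20 arrays 33 of 39 members correlated at 0.8 or more with the median of the others, and over the tumour arrays 37 did. Over the thymocyte arrays 23 did, and Foxm1 (-0.48), Mki67 (-0.47), Pttg1 (-0.43) and Kif4 (-0.29) correlated negatively. The span of a single member was smallest for Ube2c, the ubiquitin-conjugating enzyme of the anaphase-promoting complex (1.06). It was largest for Plk1, the polo-like kinase of mitotic entry (2.90). WT ENU tumours held the highest array for 35 of 39 members. KO Notch tumour 2 held the lowest array for 24, and an irradiated array did so for 13. Such counts were not made over all genes and are not results about the members. The median of the centred members was 0.06 and -0.04 in untreated WT thymocytes and -0.19 on both untreated KO arrays. It was -0.43, -0.13 and -0.33 in irradiated WT and -0.50, -0.49 and -0.49 in irradiated KO thymocytes. Among tumours it was 0.71, 0.92 and 0.88 in WT ENU, -0.07, 0.34 and 0.17 in KO ENU, 0.12 and 0.40 in WT Notch, and 0.50 and -0.75 in KO Notch tumours. WT ENU tumours thus lay above every other array, and the KO Notch pair lay further apart than any other group. Pttg1, securin, which holds separase in check, had the lowest correlation over the 20 arrays (-0.36), and Ndc80 (0.46) and Cenpa (0.52) came next. Pttg1 read 9.19, 8.53 and 8.97 in WT ENU tumours and 9.33 and 9.27 in untreated WT thymocytes.

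In irradiated WT thymocytes the phosphatase Cdc25c, the kinases Aurka and Plk1 and the Aurora cofactor Tpx2 were lower than in untreated ones, as were most kinetochore and midzone genes, while 4 members were higher. Of 39 members, 20 fell and 4 rose, when 21.7% of the 12747 genes tested were called lower and 13% higher. The share of members that rose was thus below that of all genes, so the 4 are not a result about the members as a set. The median difference of the members was -0.30, and that of all genes -0.02. With all 20 arrays in 1 fit, whose spread includes that of the tumours, the 24 calls became 3 (Aurka, Plk1 and Cdc25c). Cdc25c, the phosphatase that activates CDK1, fell by 1.32 ± 0.12, Aurka by 1.31 ± 0.10 and Plk1 by 1.24 ± 0.11 (adjusted p = 7.03e-07, 1.05e-07 and 6.29e-07).

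Aurka, the centrosomal Aurora A kinase, read 10.30 and 10.17 in untreated and 8.85, 9.07 and 8.85 in irradiated WT thymocytes. Plk1 read 11.39 and 11.01, and then 9.89, 9.92 and 10.08. Cdc25c read 8.58 and 8.49, and then 7.17, 7.18 and 7.29. In each of the 3 genes every irradiated array lay below both untreated arrays, with a gap between groups larger than the spread within them. Tpx2, which activates Aurora A on spindle microtubules, fell by 0.70 ± 0.11. Nek2, a kinase of centrosome separation, was the exception among the spindle kinases, with a difference of 0.04 ± 0.13 (adjusted p = 0.832).

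Beyond the kinases, the kinetochore protein Cenpf fell by 1.02 ± 0.12, from 9.19 and 9.03 to 7.88, 8.06 and 8.34. Hmmr, a microtubule-binding protein of spindle poles, fell by 1.05 ± 0.14, from 9.19 and 8.81 to 7.68, 8.19 and 7.99. Cdc20, the activator of the anaphase-promoting complex, fell by 0.86 ± 0.12, from 10.29 and 10.18 to 9.47, 9.46 and 9.21. None of the 3 overlapped between the groups. Of the 6 genes of the spindle midzone and cytokinesis, 5 fell: Anln by 0.61, Ect2 by 0.59, Prc1 by 0.55, Kif20a by 0.53 and Kif23 by 0.32. Ect2 activates RhoA at the cleavage furrow, Anln organises its contractile ring and Prc1 bundles midzone microtubules. Racgap1, the partner of Kif23, had a difference of -0.20 ± 0.13 and did not pass. The microtubule depolymerase Kif2c fell by 0.57, and the kinetochore genes Nuf2, Cenpe and Cenpa by 0.52, 0.40 and 0.40.

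The 4 genes of the spindle checkpoint, Bub1, Bub1b, Mad2l1 and Ttk, lay between -0.25 and -0.13 and none passed. Of the chromosomal passenger complex, which corrects attachments and guides cytokinesis, Birc5 (survivin) fell by 0.40 and Incenp by 0.30, while its kinase Aurkb had a difference of 0.05 ± 0.10 (adjusted p = 0.733) and Cdca8 (borealin) of 0.01. Top2a, the topoisomerase that untangles sister chromatids, had a difference of -0.02 ± 0.11 (adjusted p = 0.918). Cdca3, a trigger of mitotic entry, fell by 0.41, and Cdca2, which recruits a phosphatase to chromatin at mitotic exit, fell by 0.30.

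The 4 members that rose in irradiated WT thymocytes were Mki67, the chromosome-surface protein Ki-67 (0.57 ± 0.12), the chromokinesin Kif4 (0.39 ± 0.13), the transcription factor Foxm1 (0.36 ± 0.13) and cyclin A2, Ccna2 (0.29 ± 0.10). Mki67 read 11.07 and 11.04 in untreated and 11.51, 11.57 and 11.81 in irradiated WT arrays, with no overlap. Foxm1 read 10.41 and 10.27, and then 10.39, 10.89 and 10.81, so that 1 irradiated array lay within the untreated ones. The call for Foxm1 was close to the threshold (adjusted p = 0.0456). Both Mki67 and Kif4, like Plk1 and Aurka, have a CHR in the windows shown above: CHR letters were in 14 of 17 windows of members that fell and in 2 of 2 of those that rose. They were also in 10 of 14 windows of members that did not pass.

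**Figure D2:**
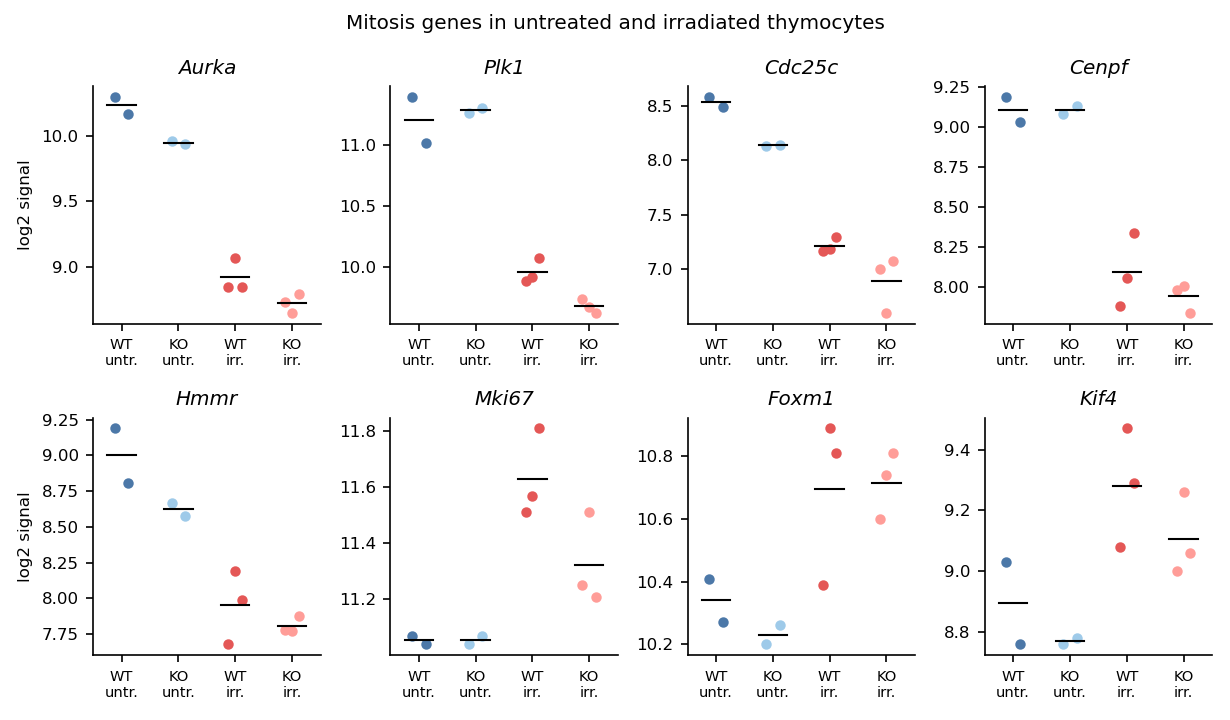
Log2 signal of 8 mitosis genes in thymocytes, with a dot for each array (2 untreated and 3 irradiated of each genotype) and a bar at the group mean; the vertical scales differ. Aurka, Plk1, Cdc25c, Cenpf and Hmmr are lower on every irradiated array, while Mki67 is higher on every irradiated array.

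In irradiated KO thymocytes 18 members fell and 2 rose, when 23.7% and 15.1% of genes tested were called lower and higher. The share that rose was again below that of all genes. With all 20 arrays in 1 fit the 20 calls became 5 (Aurka, Plk1, Cdc25c, Cenpf and Tpx2). Of the members that fell, 16 were shared with WT, which is 80.0% of the 20 in WT and 88.9% of the 18 in KO. The same share was not computed over all genes, so the overlap is not a result about the members. The comparisons have no array in common, but both came from 1 fit with a shared estimate of spread. Plk1 fell by 1.60 ± 0.11 in KO, from 11.26 and 11.30 to 9.74, 9.68 and 9.63. Cdc25c fell by 1.25, Aurka by 1.23, Cenpf by 1.16, Tpx2 by 0.99, Cdc20 by 0.94, Hmmr by 0.82 and Kif20a by 0.71. Nek2 and the checkpoint kinase Bub1b fell in KO by 0.38 and 0.43, and Foxm1 and Kif4 rose by 0.49 and 0.34. Mki67 had a difference of 0.27 ± 0.12 (adjusted p = 0.076), Aurkb of 0.01 ± 0.10 and Top2a of -0.08 ± 0.11.

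The response itself did not differ between genotypes at the threshold for any member: limma's interaction term called 0 of 39 (3 at an unadjusted p below 0.05), when 1.1% and 0.784% of genes were called. The smallest p was that of Cenpa, the histone H3 variant of centromeres, with a difference of 0.55 ± 0.15 (adjusted p = 0.0684). Cenpa read 11.10 and 11.06 in untreated and 10.52, 10.75 and 10.76 in irradiated WT cells. In KO cells it read 10.61 and 10.63 untreated and 10.81, 10.68 and 10.82 irradiated, so the untreated KO arrays were already near the irradiated WT level. Nek2 (-0.42 ± 0.18) and Plk1 (-0.36 ± 0.16) followed, with adjusted p = 0.313 and 0.355. Without KO irradiated 2 the count was 1 in place of 0. Untreated and irradiated KO arrays also differed in which Gfi1 probe sets were low. The part of that in the KO response and in the interaction was not tested.

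Other lists of cell cycle and p53 genes, set by function, are given for the same arrays, with no test of their difference from the members. Of 51 genes of G1/S and DNA replication tested, 31 rose and 2 fell in irradiated WT cells (median 0.47), and 30 rose and 2 fell in KO cells (median 0.41). Examples in WT are Dtl, an adaptor that targets replication factors for degradation (1.24 ± 0.11), the repressor E2f7 (1.10 ± 0.10) and the polymerase subunit Pole (1.13 ± 0.11). Of 31 genes activated by p53, 17 rose and 4 fell in WT, with Cdkn1a, the CDK inhibitor p21, up by 2.74 ± 0.13, and 21 rose and 5 fell in KO, with Cdkn1a up by 1.83 ± 0.13. A wider list of 64 other mitosis genes gave 15 higher and 20 lower in WT. Its extremes were Gtse1, itself a p53 target (1.43 ± 0.11), and the mitotic gene Depdc1a (-1.51 ± 0.13). Mybl2, which encodes B-Myb, rose by 0.88 ± 0.10 in WT and 0.62 ± 0.10 in KO. Of 8 G1 cyclins and CDKs, 1 rose and 3 fell in WT, and none rose and 5 fell in KO. Myc fell by 1.76 and 1.79, Ccnd2 by 1.41 and 1.59 and Ccnd3 by 0.97 and 1.19 in WT and KO, and E2f1 rose by 0.96 and 0.94. Mdm2, the p53 ubiquitin ligase, rose by 0.37 and 0.60.

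**Figure D3:**
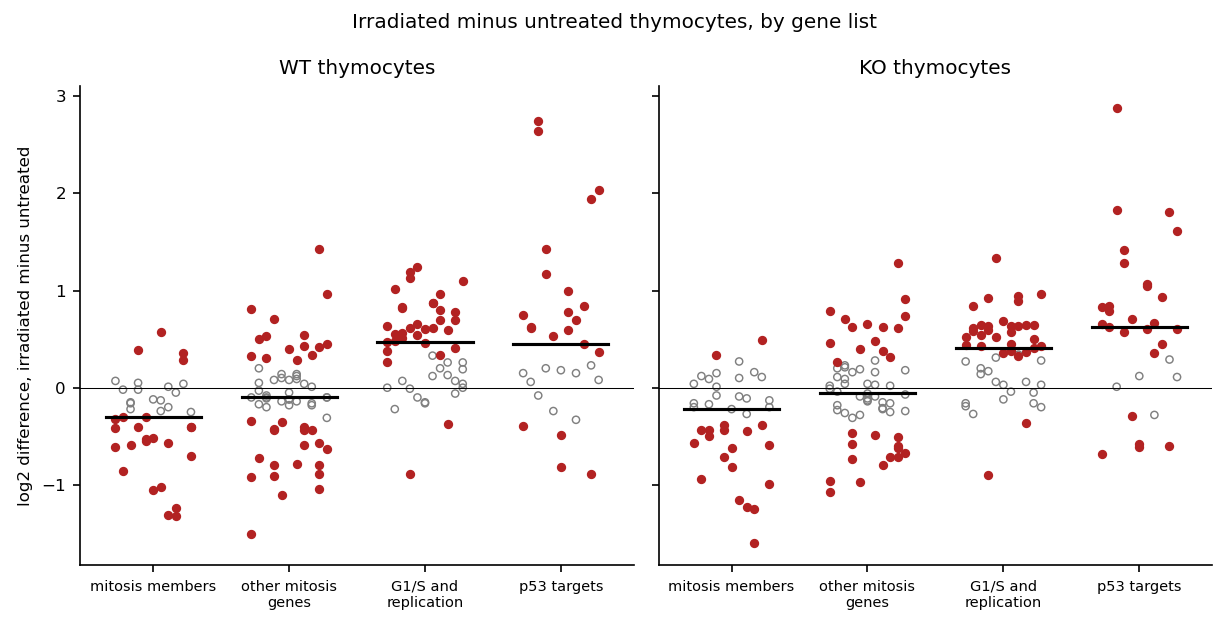
Log2 difference of irradiated minus untreated thymocytes for each gene of 4 lists, in WT (left) and KO (right); filled points passed limma's adjusted p below 0.05, open points did not, and the bar is the list's median. The members' medians are -0.30 and -0.22, and those of the replication list 0.47 and 0.41.

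Markers of cell types moved as well. In irradiated WT cells, 5 of 6 B cell markers, 5 of 6 macrophage markers and 8 of 8 granulocyte markers tested were lower, with medians of -0.94, -0.73 and -1.84. Of 7 markers of CD4+ CD8+ thymocytes 4 were lower (median -0.30), and of 9 thymocyte markers 4 (median -0.24). In irradiated KO cells 6 of 6 B cell and 6 of 6 macrophage markers and 4 of the 7 CD4+ CD8+ markers were lower (medians -0.88, -1.02 and -0.26), and 2 of 8 granulocyte markers were higher (median 0.25). Of 8 double-negative markers Kit and Hes1 were higher in both genotypes, and Dtx1, Flt3 and Ptcra were among the lower. The array medians of this list ran from -0.29 to -0.11 in untreated and -0.46 to -0.28 in irradiated WT cells. In KO cells they ran from 0.09 to 0.11 untreated and -0.54 to -0.37 irradiated. The part of these shifts in the members' differences was not tested. Without the array WT untreated 1, the count of members called in irradiated WT cells went from 24 to 14.

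KO against WT thymocytes gave smaller differences, nearly all toward a lower signal in KO. In untreated cells 35 of 39 members had a difference below 0, against 53.9% of all genes, with a median of -0.19 against -0.02 for all genes. Of the members 3 passed, all lower in KO, when 5.49% of genes were called lower and 6.79% higher. They were Cenpa (-0.46 ± 0.11, adjusted p = 0.0121), Cdca3 (-0.40 ± 0.12, adjusted p = 0.041) and the checkpoint protein Mad2l1 (-0.39 ± 0.11, adjusted p = 0.0246).

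Mad2l1 read 11.75 and 11.75 in WT and 11.32 and 11.41 in KO cells, and Cdca3 read 10.31 and 10.15 against 9.77 and 9.88. Neither overlapped, and 28 of the 39 members were lower on both KO arrays than on both WT arrays, when 33.3% of all genes were. The members that did not pass included Plk1 (0.08 ± 0.13), Mki67 (0.00 ± 0.13), Foxm1 (-0.11 ± 0.14), Aurkb (-0.29 ± 0.11) and Top2a (-0.16 ± 0.12). The spindle kinases had a median of 0.00, although Aurka read 10.30 and 10.17 in WT and 9.96 and 9.94 in KO cells. The checkpoint genes had a median of -0.30. Leaving out any 1 of the 4 arrays left 0 members called, and so did the fit with all 20 arrays, while the mean of probe sets gave 7.

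In irradiated cells 7 members were lower in KO and none higher, when 6.81% and 8.12% of genes were called lower and higher. In order of size they were Nek2 (-0.42 ± 0.11), Ccna2 (-0.34 ± 0.09), Bub1b (-0.34 ± 0.09), Mad2l1 (-0.34 ± 0.09), Aurkb (-0.33 ± 0.09), cyclin B2, Ccnb2 (-0.31 ± 0.09), and Anln (-0.30 ± 0.10), with adjusted p from 0.0137 to 0.0489. Aurkb read 11.16, 11.39 and 11.18 in WT and 10.88, 10.92 and 10.95 in KO, and Ccna2 read 12.20, 12.39 and 12.37 against 12.03, 11.86 and 12.04. The genotypes did not overlap in either gene, nor in 16 of the 39 members, all lower in KO, when 13.4% of all genes were lower without overlap. A difference below 0 was seen in 37 of 39 members, against 57.2% of all genes, and the median was -0.20. Mad2l1 was the member called in both the untreated and the irradiated comparison, which is 33.3% of the 3 and 14.3% of the 7. The same share was not computed over all genes. Mki67 (-0.31 ± 0.10, adjusted p = 0.0533), Plk1 (-0.28 ± 0.10, adjusted p = 0.0822), Top2a (-0.22 ± 0.10) and Foxm1 (0.02 ± 0.12) did not pass. Without WT irradiated 2, WT irradiated 3 or KO irradiated 1, the count of members called was 1, 4 or 3 in place of 7, and with all 20 arrays in 1 fit it was 0.

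Most genes of G1/S and replication also had a difference below 0. In untreated KO cells 7 of 51 were lower and none higher (median -0.24), led by the primase Prim1 (-0.65 ± 0.13) and E2f2 (-0.60 ± 0.12). In irradiated KO cells 20 of 51 were lower and none higher (median -0.29), led by the thymidylate synthase Tyms (-0.62 ± 0.10) and E2f8 (-0.58 ± 0.09). Of the 64 other mitosis genes 9 were lower in each comparison and 1, the phosphatase Cdc25b (0.45 ± 0.12), was higher in irradiated KO cells, with Cenpn (-0.68 ± 0.13) among the lower in untreated cells and Ccnf (-0.56 ± 0.10) in irradiated cells. In irradiated cells Cdkn1a was lower in KO (-0.48 ± 0.11), and so was Ccnd3 (-0.44 ± 0.09).

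Markers of other cells moved between the genotypes too. In untreated KO cells 8 of 8 granulocyte markers were lower (median -2.72) and 5 of 5 markers of mature thymocytes (median 0.82), 4 of 4 NK markers (median 0.84), 5 of 6 macrophage markers (median 0.56), 3 of 4 erythroid markers (median 1.53), 4 of 8 markers of double-negative thymocytes (median 0.24) and 3 of 6 B cell markers (median 0.37) were higher. Hbb-b1, a haemoglobin gene, was the erythroid marker with the largest difference (4.13). These counts cover only markers that passed the filter on dim genes. Of the NK markers it left out, Klrb1c read 8.51 and 7.65 in untreated WT and 7.24 and 6.79 in untreated KO cells. Ncr1, also left out, read 6.29 and 6.19 against 6.62 and 6.88. None of the 9 thymocyte markers passed (median -0.05). In irradiated KO cells 5 of 5 mature markers were higher (median 0.83) and 6 of 8 granulocyte markers lower (median -0.80). There, 4 of 4 NK (median 0.69), 4 of 6 macrophage (median 0.30), 3 of 6 B cell (median 0.36) and 2 of 4 erythroid markers (median 0.45) were also higher, and 1 B cell marker was lower. Of the double-negative markers Dtx1 (0.34) and Flt3 (0.31) were higher, and Ptcra (-0.48) and Il2ra (-0.37) lower. Their part in the members' lower signal was not tested.

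**Figure D4:**
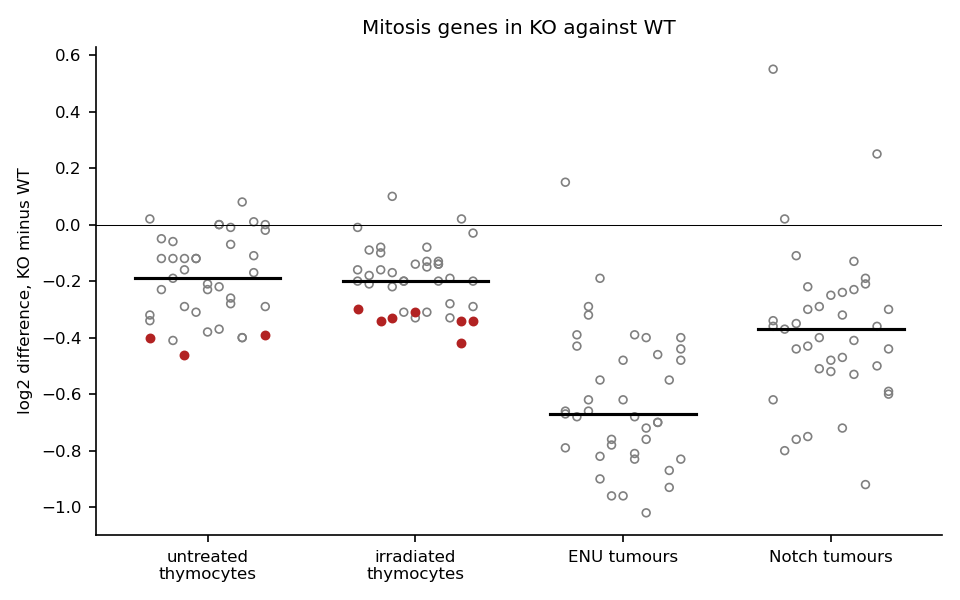
Log2 difference of KO minus WT for each of the 39 mitosis genes in 4 settings; filled points passed limma's adjusted p below 0.05 (3 in untreated and 7 in irradiated thymocytes), open points did not, and the bar is the median. Most points lie below 0 in each setting, and none passed in tumours.

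Among ENU tumours the members had a median difference of -0.67 between KO and WT, but the arrays of a group also lay further apart, and no member passed. limma called 0 of 39 members, with 16 at an unadjusted p below 0.05, and called 0% of the 13025 genes tested. The difference was below 0 for 38 of 39 members, against 57% of all genes. In 32 members every KO array lay below every WT array, when 19% of all genes did so. The smallest p belonged to Nek2 (-0.93 ± 0.20, adjusted p = 0.284), Foxm1 (-0.87 ± 0.25, adjusted p = 0.347) and Aurkb (-0.90 ± 0.28, adjusted p = 0.347).

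Nek2 read 10.27, 10.21 and 10.35 in WT and 9.30, 9.39 and 9.34 in KO ENU tumours. Foxm1 read 11.88, 11.74 and 11.70 against 10.86, 10.99 and 10.86, and Aurkb 12.08, 12.25 and 12.45 against 11.11, 11.50 and 11.47. Racgap1, the GTPase-activating partner of Kif23, had the lowest difference (-1.02 ± 0.37) and read 10.70, 11.10 and 11.31 against 9.82, 10.42 and 9.82. In the first 3 the gap between the groups was wider than the spread within either of them. Plk1 (-0.46 ± 0.27), Mki67 (-0.39 ± 0.18) and Top2a (-0.55 ± 0.39) had smaller differences relative to their error, and Pttg1 alone lay above 0 (0.15 ± 0.31). By role, the medians ran from -0.79 for midzone and cytokinesis genes and -0.78 for the passenger complex to -0.48 for kinetochore genes and -0.29 for the anaphase-promoting complex and securin. All 51 genes of G1/S and replication lay below 0 as well, with a median of -0.76 and none called (12 at an unadjusted p below 0.05). Without KO ENU tumour 1 that median was -0.44, with 50 of the 51 below 0, and 38 of 39 members were still below 0. Without KO Notch tumour 2, which is in neither group but sets part of the shared spread, Nek2 and Foxm1 passed with unchanged differences of -0.93 and -0.87, and with all 20 arrays in 1 fit 5 members passed.

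Markers of other cells and of thymocyte stages also differed in KO ENU tumours. The median of 7 macrophage markers was 2.11, 0.46 and 0.44 on the 3 KO arrays and at most 0.37 on the WT arrays. That of 5 mature thymocyte markers was higher in KO, at 0.58, -0.10 and -0.19 against -1.97, -1.65 and -1.35. That of 6 NK markers was also higher, at 0.47, 0.07 and 0.15 against -0.57, -0.34 and -0.42. The median of 7 CD4+ CD8+ markers was lower in KO, at -1.59, -0.47 and -1.20 against -0.42 to 0.10. On KO ENU tumour 1, the array with the highest macrophage markers, the members had their lowest median of the group, -0.07. The part of these cells in the members' values was not tested.

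In Notch tumours the KO comparison rested on a pair of arrays that disagreed. All 39 members were lower on KO Notch tumour 2 than on KO Notch tumour 1, by a median of -1.27 on the log2 scale, and 38 were lower there than on every other tumour array. The same counts were not made over all genes, so they describe this array and are not results about the members. Plk1 read 12.41 and 11.21 in KO and 11.95 and 12.05 in WT Notch tumours, and Kif11, the motor that keeps spindle poles apart, read 11.44 and 9.91 against 11.41 and 11.78. The KO values of Plk1 thus fell on either side of the WT ones. For Kif11, KO Notch tumour 1 lay between the WT values and KO Notch tumour 2 far below them. limma called 0 of 39 members (0 at an unadjusted p below 0.05), when 0.0154% of genes were called lower, and the median was -0.37. The smallest p belonged to Kif11 (-0.92 ± 0.43), Nusap1 (-0.80 ± 0.44) and Ect2 (-0.76 ± 0.45), with adjusted p = 0.806, 0.807 and 0.821. Without KO Notch tumour 2 the median was 0.22, and 33 of the 36 members below 0 turned to above 0, a count not made over all genes. Without KO Notch tumour 1 the median was -1.03, but that arm then held 1 array, the one with B cell markers. The direction thus differed between the 2 KO arrays.

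The KO effect did not differ between Notch and ENU tumours at the threshold for any member, by limma's interaction term (0 of 39, and 1 at an unadjusted p below 0.05). Nek2 had the smallest p (1.19 ± 0.31, adjusted p = 0.589), with 10.01 and 9.20 in KO and 9.26 and 9.44 in WT Notch tumours. The median was 0.30, and 0.86 without KO Notch tumour 2.

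WT Notch tumours read lower than WT ENU tumours for 38 of 39 members, against 55.6% of all genes, with a median of -0.51. In 30 members the groups did not overlap, when 21.8% of all genes were lower without overlap. limma called 0 members (6 at an unadjusted p below 0.05), when 0.0154% of genes were called higher and 0.00768% lower. The smallest p belonged to Nek2 (-0.93 ± 0.22, adjusted p = 0.361), Foxm1 (-0.85 ± 0.28) and Racgap1 (-1.08 ± 0.41). The median of the 8 double-negative markers was 0.68, 1.07 and 0.95 in WT ENU and -0.03 and -0.17 in WT Notch tumours, and that of the 5 mature markers was -1.97, -1.65 and -1.35 against -0.59 and -0.69, and their part in the members' difference was not tested. This comparison shares the WT ENU arrays with that of KO and WT ENU tumours. In KO tumours, Notch against ENU had a median of -0.30 with 0 members called (0 at an unadjusted p below 0.05), when 0.0461% and 0.0614% of genes were called higher and lower. Without KO Notch tumour 2 that median was 0.31, and 34 of the 35 members below 0 turned to above 0, a count not made over all genes. Without KO Notch tumour 1 the differences of Ect2 and Tpx2 were -1.64 and -1.35, again with 1 array in the arm.

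**Figure D5:**
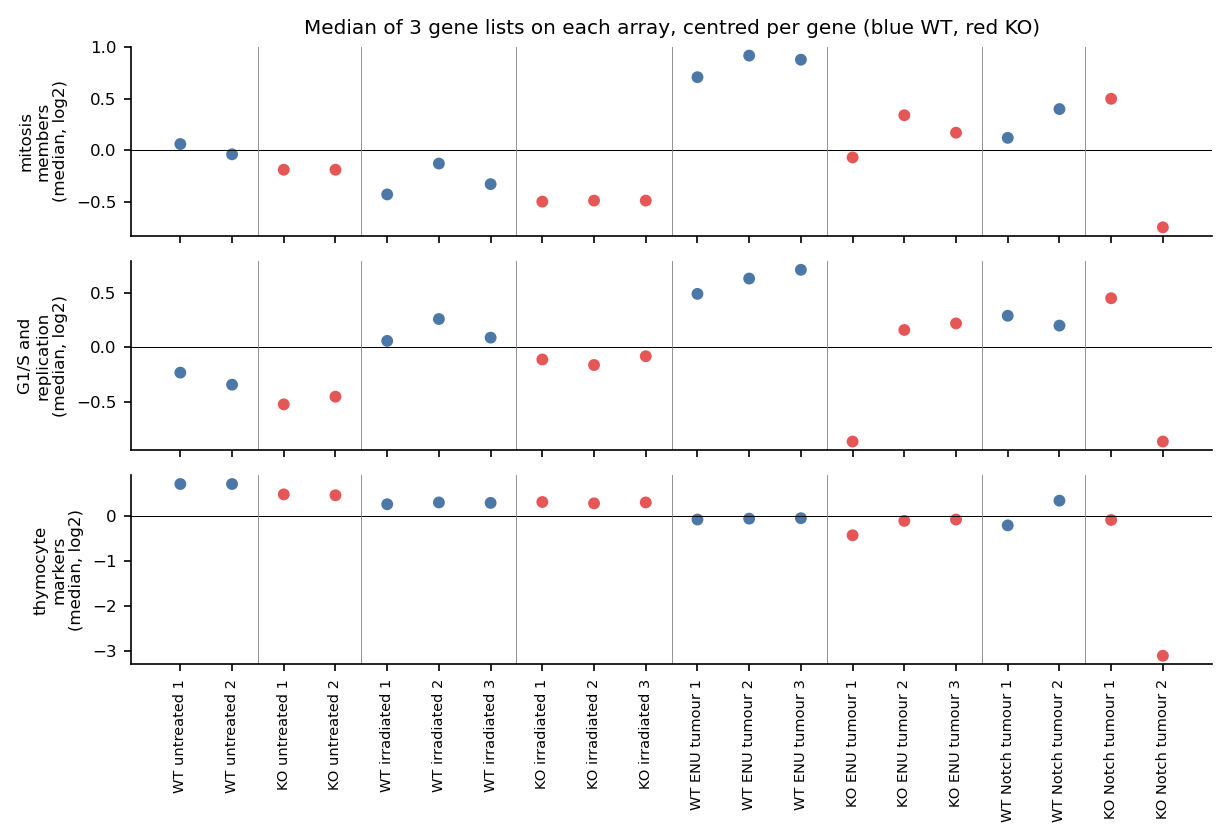
Median of 3 gene lists on each of the 20 arrays, each gene centred on its mean over the arrays (log2 scale): mitosis genes (39), G1/S and replication genes (51) and thymocyte markers (9), with WT in blue and KO in red. Mitosis and replication genes part in irradiated thymocytes, and KO Notch tumour 2 is low in all 3 lists.

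WT ENU tumours read higher than untreated WT thymocytes for the bulk of the mitotic machinery. Of 39 members 19 rose and none fell, when 9.87% and 10.2% of the 13520 genes tested were called higher and lower, and the median difference was 0.86 against 0.01 for all genes. The 10 with the largest rise were Kif4 (1.47 ± 0.30), Foxm1 (1.43 ± 0.23), Bub1b (1.43 ± 0.27), Mki67 (1.31 ± 0.16), Plk1 (1.29 ± 0.24), Kif20a (1.22 ± 0.29), Bub1 (1.20 ± 0.31), Cenpf (1.16 ± 0.28), Cenpe (1.15 ± 0.28) and Tpx2 (1.12 ± 0.27). Aurkb rose by 1.06 ± 0.24.

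Bub1b read 9.89 and 9.71 in thymocytes and 11.26, 11.07 and 11.37 in the tumours, and Mki67 read 11.07 and 11.04 against 12.23, 12.42 and 12.46. Each tumour array lay above both thymocyte arrays in these genes, as it did in 35 of the 39 members, when 27.9% of all genes were higher without overlap. Of the 6 midzone and cytokinesis genes 5 rose, of the 4 checkpoint genes 3, and of the 3 genes of the anaphase-promoting complex and securin none. Top2a (0.76 ± 0.33, adjusted p = 0.119), Aurka (0.56 ± 0.25, adjusted p = 0.132) and Cdc25c (0.52 ± 0.23) did not pass, nor did Cenpa (0.01 ± 0.24), Ndc80 (-0.16 ± 0.27) and Pttg1 (-0.40 ± 0.27). Of the 64 other mitosis genes 28 rose and 1 fell, and of the 51 replication genes 20 rose and 1 fell. Ccnd2 fell by 2.90 ± 0.41 and Ccnd3 by 0.96 ± 0.23, and Cdkn1a rose by 2.34 ± 0.67. Cdkn1a read 8.59, 11.86 and 11.19 in the tumours against 8.12 and 8.30 in thymocytes, so 1 tumour stayed near the thymocyte level.

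In the same tumours 3 of 8 markers of double-negative thymocytes were higher: Dtx1 (2.41 ± 0.34), Hes1 (2.41 ± 0.56) and Notch3 (1.84 ± 0.48). The others on that list went different ways. Flt3 read 7.65, 7.77 and 7.57 in tumours against 8.27 and 8.28 in thymocytes, and Il2ra 10.82, 11.07 and 10.81 against 10.90 and 10.86. Ptcra read 11.76, 10.51 and 10.41 against 9.65 and 9.73. In these tumours 3 of 5 mature markers and 7 of 8 granulocyte markers were lower, and the 9 thymocyte markers had a median of -0.84. Their part in the members' rise was not tested. The count of members called was 31 on the compared arrays alone, 32 without KO Notch tumour 2, and 6 or 5 without WT untreated 1 or WT untreated 2.

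WT Notch tumours against untreated WT thymocytes gave 1 member called, Mki67 (1.00 ± 0.18, adjusted p = 0.00518), when 2.14% of genes were called higher and 5.54% lower. Mki67 read 11.94 and 12.17 in these tumours, above both thymocyte arrays. Plk1 (0.80 ± 0.26, adjusted p = 0.0743), Foxm1 (0.58 ± 0.25), Aurkb (0.44 ± 0.26) and Top2a (0.51 ± 0.36) did not pass, and the median of the 39 was 0.31. The count was 8 on the compared arrays alone, 11 without KO Notch tumour 2 and 0 without WT untreated 1 or WT untreated 2, and this comparison shares its thymocyte arrays with that of WT ENU tumours.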

How the data were processed

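Per the labels' protocols, RNA was amplified with a NuGEN kit, labelled with biotin and hybridised to arrays. The authors deposited 1 table of 182058 probe sets by 20 arrays, whose values (3.37 to 15.01, array medians 9.08 to 9.27) were read as log2 signal. How these were background-corrected and normalized, and the log base, are not given in the sources used. Probe sets were named through GEO's platform annotation, which can be old: 167016 name 1 gene and were used, 3388 several and 11654 none. Probe sets were centred across arrays and summarised per gene by their median, to which the gene's mean level was added back. Genes above the 40th percentile of an array on at least 2 arrays of the fit were tested. The 10 thymocyte arrays entered the thymocyte fits, the 10 tumour arrays the tumour fits, and all 20 the fit of tumours against thymocytes, with limma 3.58.1 (lmFit, eBayes) in R 4.3.3 and Benjamini-Hochberg adjustment at 0.05, over 12 comparisons. The fits were tested on simulated data. Sequences are from RefSeq (GRCm38.p6). Python 3.11.15 and matplotlib 3.10.9 drew the figures. The number of arrays limits the precision.

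The 40 members and all other gene lists were chosen with earlier results of these data known. All members may be named. Given in full are up to 10 members past the threshold in each direction, ordered by size, or else the 3 with the smallest p, with Mki67, Top2a, Foxm1, Plk1 and Aurkb throughout. Of other lists, up to 3 genes a direction with the smallest p are named, with Cdkn1a, Mdm2, E2f1, Ccnd2, Ccnd3 and Myc. Some cell type markers outside this rule are named with their values. Alternatives covered the array scale, the probe set summary, the filter, the arrays in the fit, the variance model, the replicate number as a block and each array left out.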

Additional observations from a re-analysis of the deposited data

Results flagged for a closer look

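Cenpa, the centromeric histone, was lower on every irradiated than on every untreated WT array and higher on every irradiated than on every untreated KO array. The response differed by 0.55 on the log2 scale (KO minus WT). limma's interaction term gave an adjusted p of 0.0684 over all genes, above the threshold, from 5 probe sets.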

How the results depend on the processing

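Counts of members called moved as follows, with the share of all genes called under each alternative not given. In KO against WT untreated thymocytes, 3 were called, 6 after quantile normalization, 7 with the mean of probe sets, 5 with trend and robust variances, 0 with all 20 arrays in the fit, and 0 to 0 with each array left out. In irradiated thymocytes 7 became 0 with all 20 arrays and 1 to 10 with each array left out. For irradiation, 24 in WT became 3 with all 20 arrays and 14 to 23 with each array left out, and 20 in KO became 5 and 16 to 19. The difference in that response went from 0 to 1 after quantile normalization, 1 with trend and robust variances and 0 to 1 with each array left out. With all 20 arrays, the count went from 0 to 5 for KO against WT ENU tumours, to 1 for WT Notch against ENU tumours and to 1 for the difference in KO effect. With each array left out, it was 0 to 18 for KO against WT Notch tumours and 0 to 14 for KO Notch against KO ENU tumours. The comparison of WT ENU tumours with thymocytes gave 19, 31 on the arrays compared alone, and 5 to 16 with each of these arrays left out; WT Notch tumours gave 1, 2 with the mean of probe sets, 8 on the arrays compared alone and 0 to 1. Without KO Notch tumour 2, an alternative chosen after seeing the data, these gave 32 and 11, KO against WT ENU tumours 2 and WT Notch against ENU tumours 1. Without that array 33 of 39 members turned from below to above 0 in KO against WT Notch tumours and 34 in KO Notch against KO ENU tumours. Among the differences recomputed one by one, these include Ect2 in the former (0.10, and -1.62 without KO Notch tumour 1) and Ect2 and Tpx2 in the latter (0.08 and 0.08, and -1.64 and -1.35 without KO Notch tumour 1). Leaving out arrays leaves fewer samples; beyond that, the cause of these shifts was not tested. For the 92 single-gene differences recomputed under each alternative, 1042 values kept direction and side of the threshold, 188 lost a call, 16 gained one and 3 changed sign.

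The replicate numbers did not pair the samples: same-numbered WT and KO arrays deviated together with correlations of 0.124 in untreated, 0.22, -0.0356 and -0.342 in irradiated, 0.0394, 0.0291 and -0.0814 in ENU and 0.0461 in Notch samples. With the replicate number as a block, the count was 1 in place of 3 in untreated KO against WT thymocytes, 6 in place of 7 in irradiated ones, 19 in each irradiation comparison, 15 in WT ENU tumours against thymocytes and 1 in WT Notch tumours, and 0 elsewhere.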
